A study of Mus musculus with 6 samples.

Results

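The expression of 31 genes of cholesterol synthesis, storage, transport and export was compared between bone marrow-derived mast cells (BMMCs) from mice of the strains BALB/c and C57BL/6. The genes were picked by name for their known roles, and all 31 were found among the 35297 genes to which transcripts of the deposited tables could be assigned. They comprise 19 enzymes of sterol synthesis, 5 genes that control the sterol-sensing SREBP pathway, 5 genes of transport, storage, export and receptor turnover, and 2 liver X receptors. Of the 19 enzymes, 15 were expressed at 1.08- to 1.52-fold higher levels in BALB/c BMMCs, and none of the 19 was higher in C57BL/6 BMMCs. Outside the synthesis enzymes, Soat1, which stores cholesterol as esters, was 8.65-fold higher in BALB/c BMMCs, while the exporter gene Abcg1 was 1.99-fold higher in C57BL/6 BMMCs.

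Cells build cholesterol from acetyl-CoA in a long series of steps. The early enzymes make mevalonate and then farnesyl diphosphate, which is also the source of lipid anchors for signalling proteins, of dolichol and of ubiquinone. The later enzymes join farnesyl diphosphate to squalene, close it to lanosterol and trim it to cholesterol. Most of these enzymes are known targets of SREBP transcription factors, which Insig proteins hold back in the endoplasmic reticulum while sterols are plentiful and which Scap escorts to the Golgi when sterols run low. Excess cholesterol is esterified by the Soat enzymes or exported by ABC transporters, whose genes are known targets of the liver X receptors. In mast cells, cholesterol-rich membrane domains are known to take part in signalling by the IgE receptor.

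The BMMCs were differentiated from bone marrow of wild type mice of both strains with stem cell factor (SCF), TGF-β1, IL-9 and IL-3 in the medium, and RNA was taken on day 20 from 3 cultures per strain. The labels name no stimulus of these cultures, and the age and sex of the marrow donors are not given in the sources used here. BALB/c libraries are called S9, S10 and S11, and C57BL/6 libraries S12, S13 and S14. Because only these 3 cultures represent each strain, p-values measure the spread between these libraries.

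Between 28273365 and 35873036 reads per BALB/c library and between 28801452 and 37100869 reads per C57BL/6 library were assigned to genes. The mast cell identity genes Cpa3, Fcer1a and Ms4a2 each had at least 30438 reads in every library, whereas the neutrophil and eosinophil lists had at most 15 reads of any gene in any library. Hdc had the fewest reads on the mast cell list, 66 to 202 per library. On the T or NK cell list, Ncr1 had 120 to 204 reads per library and the other genes had at most 2. Library S11 stood apart in that it held 0 reads of Xist, the RNA that coats the inactive X chromosome, against 7224 to 9305 in the other 5 libraries. Reads of the Y-linked genes Ddx3y, Kdm5d and Eif2s3y were 0 in all 6 libraries and those of Uty were between 1 and 4, so results of X-linked members are also given without S11. Levels are given as CPM, read counts scaled to library sizes corrected with TMM factors, and as TPM, which also divides by transcript length, where different genes are compared.

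Of the 31 genes, 30 had enough reads to be tested, the exception being Nr1h3. A gene was called when the quasi-likelihood test of edgeR, adjusted by Benjamini-Hochberg over all 12461 tested genes, gave an adjusted p under 0.05. By this rule 18 members were higher in BALB/c BMMCs, 1 was higher in C57BL/6 BMMCs and 11 were not called. Across all tested genes 52.9% were called, 25.9% higher in BALB/c and 27.0% higher in C57BL/6, so that differences between the strains were common. The share of members called in either direction was 63.3%, close to the background, whereas 78.9% of the synthesis enzymes were called higher in BALB/c. The median log2 fold change (C57BL/6 over BALB/c) was -0.33 for the 19 enzymes and -0.01 for all tested genes. As RNA was taken from whole cultures, fewer cells of a type and less RNA per cell cannot be told apart.

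**Figure D1:**
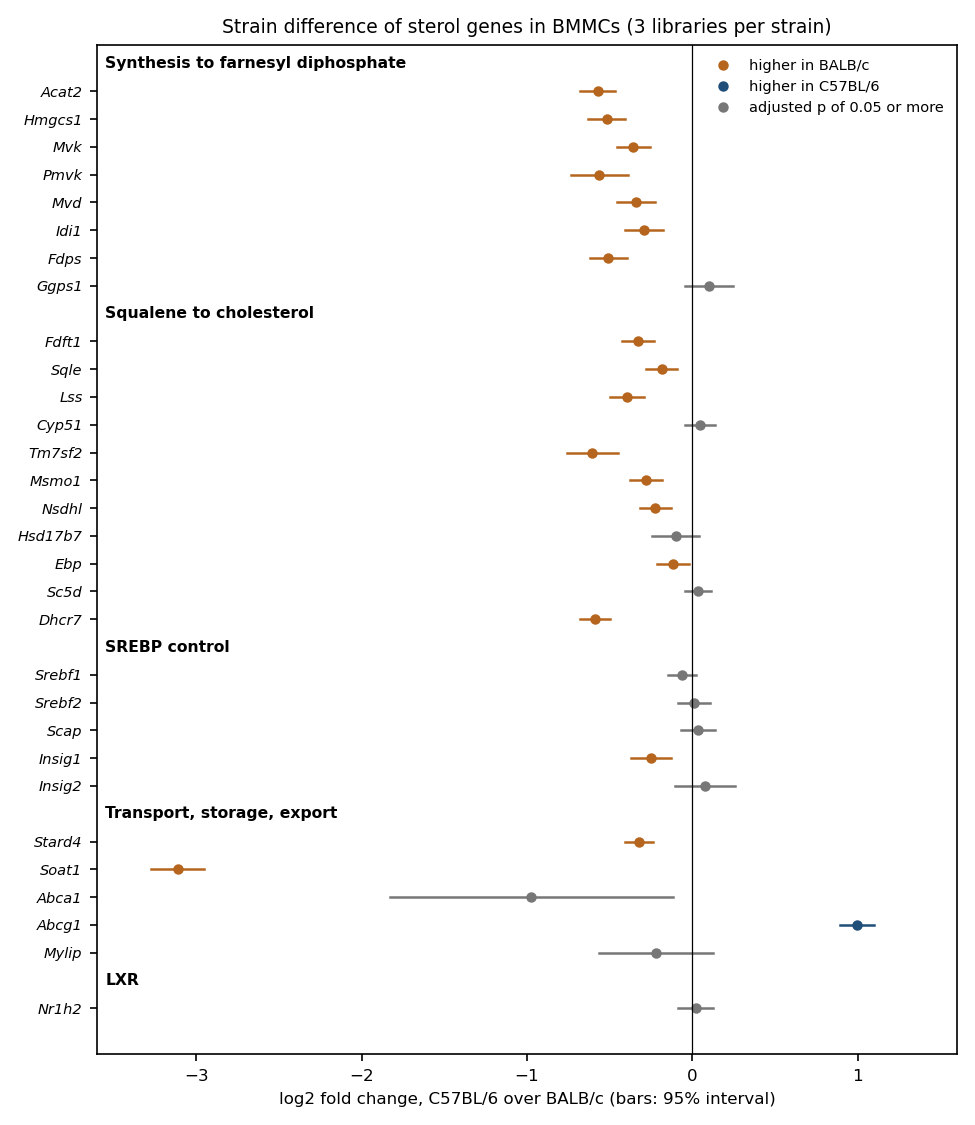
Log2 fold change of each tested member (C57BL/6 over BALB/c, x axis) with its 95% confidence interval as a bar, 3 libraries per strain, in order of role. Most synthesis enzymes lie left of 0, between -0.60 and 0.10, while Soat1 lies at -3.11 and Abcg1 at 0.996.

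Of the enzymes that lead from acetyl-CoA to farnesyl diphosphate and its elongated form, 7 of 8 were higher in BALB/c BMMCs and 1 was not called, with a median log2 fold change of -0.43. For the same 7 genes all BALB/c libraries lay above all C57BL/6 libraries, a separation seen in this direction in 30.8% of all tested genes and in either direction in 61.9%. Along the steps from squalene to cholesterol, 8 of 11 enzymes were higher in BALB/c and 3 were not called, with a median of -0.23. Summed over the 19 enzymes, expression was between 2654 and 2833 CPM in the BALB/c libraries and between 2154 and 2232 CPM in the C57BL/6 libraries. The difference was therefore spread over the pathway and small per gene, and 6 of the 15 called enzymes exceeded 1.4-fold.

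Promoter sequence was examined in RefSeq windows of assembly GRCm38.p6, which reach from 250 bases before to 50 bases after the start of transcription and which were matched to 26 of the 31 members, called or not. The windows of Fdps, Fdft1, Sqle, Stard4 and Abcg1 were not matched. The CCAAT box, which binds the factor NF-Y and is known to accompany SREBP sites, was searched as CCAAT on both strands. It was found in 21 of 26 members (80.8%) and in 41.1% of 27025 genes with a window, and in 15 of the 16 enzymes with a window, Acat2 being the exception. The GC box GGGCGG was found on either strand in 22 of 26 members (84.6%) and in 38.2% of all genes. A sterol element written as TCACNCCAC was found in 1 member, Hmgcs1, at -137 to -129, and in 1.44% of all genes. The liver X receptor motif, 2 copies of AGGTCA with any 4 bases between them, was found on either strand in 0 of 26 members and in 0.015% of all genes. These matches describe letters in short windows and were not tested against binding.

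The 200 bases before the start are shown 5′ to 3′ on the strand of the gene for Hmgcs1, Lss, Tm7sf2, Acat2 and Soat1, in this order. Soat1 was the member with the greatest strain difference. The enzymes shown had the largest absolute log2 fold changes among the enzymes with a single window. Among them, Hmgcs1 held the sterol element and Acat2 had no CCAAT box. Capitals mark CCAAT or its reverse complement ATTGG and the sterol element. The stretches lie at chr13:119690151-119690350 (plus strand), chr10:76531405-76531604 (plus strand), chr19:6067851-6068050 (minus strand), chr17:12960726-12960925 (minus strand) and chr1:156474329-156474528 (minus strand).
Hmgcs1: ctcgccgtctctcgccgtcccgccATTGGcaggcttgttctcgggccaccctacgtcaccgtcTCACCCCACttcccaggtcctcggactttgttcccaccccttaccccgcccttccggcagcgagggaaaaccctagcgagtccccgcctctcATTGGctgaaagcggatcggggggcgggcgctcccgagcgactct
Lss: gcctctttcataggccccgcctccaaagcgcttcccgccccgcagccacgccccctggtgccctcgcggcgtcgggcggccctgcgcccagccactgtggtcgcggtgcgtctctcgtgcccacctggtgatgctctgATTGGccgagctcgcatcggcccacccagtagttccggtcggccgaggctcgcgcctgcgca
Tm7sf2: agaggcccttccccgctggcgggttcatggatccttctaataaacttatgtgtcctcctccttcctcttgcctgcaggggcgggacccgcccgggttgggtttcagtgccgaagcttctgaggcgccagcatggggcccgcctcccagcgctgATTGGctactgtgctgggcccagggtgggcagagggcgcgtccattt
Acat2: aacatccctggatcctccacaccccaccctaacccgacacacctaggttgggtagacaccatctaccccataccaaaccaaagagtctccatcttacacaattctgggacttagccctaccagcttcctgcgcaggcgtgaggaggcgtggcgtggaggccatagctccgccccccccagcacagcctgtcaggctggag
Soat1: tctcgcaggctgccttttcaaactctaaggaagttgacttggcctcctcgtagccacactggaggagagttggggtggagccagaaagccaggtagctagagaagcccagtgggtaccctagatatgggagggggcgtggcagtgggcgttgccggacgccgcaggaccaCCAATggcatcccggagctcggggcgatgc

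Hmgcs1 joins acetyl-CoA to acetoacetyl-CoA in the step before mevalonate is made. Its expression was 301, 327 and 339 CPM in S9, S10 and S11 and 232, 221 and 223 CPM in S12, S13 and S14. Every BALB/c library was above every C57BL/6 library, and the difference was 1.43-fold (log2 fold change -0.52, SE 0.05, adjusted p = 2.63e-05). Acat2, the cytosolic thiolase that supplies acetoacetyl-CoA, was expressed at 114, 126 and 126 CPM in BALB/c and at 82.7, 80.4 and 83.1 CPM in C57BL/6 libraries. The C57BL/6 values were close together and lay below those of BALB/c, and the fold was 1.49 (log2 fold change -0.57, SE 0.05, adjusted p = 9.49e-06). Acat3, a neighbouring gene on chromosome 17 that shares 36.9% of its 31-base words with Acat2, had at most 5 reads in any library.

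Mvk and Pmvk phosphorylate mevalonate in turn, and Mvd removes a carboxyl group from the product. Mvk was measured at 56.6, 60.1 and 57.5 CPM in BALB/c BMMCs and at 45, 43.7 and 47.0 CPM in C57BL/6 BMMCs. Pmvk stood at 28.7, 30.5 and 29.6 CPM in BALB/c and at 20.0, 17.9 and 22.0 CPM in C57BL/6. The Mvd values were 68.1, 74.7 and 74.6 CPM in BALB/c and 59.1, 54.5 and 57.7 CPM in C57BL/6. In all 3 genes the strains did not overlap, and the C57BL/6 libraries of Pmvk varied most relative to their mean. The folds in favour of BALB/c were 1.28 for Mvk (adjusted p = 0.000143), 1.48 for Pmvk (adjusted p = 0.000234) and 1.27 for Mvd (adjusted p = 0.000413).

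Idi1 interconverts the building blocks of isoprenoids, and Fdps joins them to farnesyl diphosphate. Idi1 reached 220, 223 and 245 CPM in BALB/c libraries and 186, 194 and 181 CPM in C57BL/6 libraries. For Fdps the values were 313, 328 and 349 CPM in BALB/c and 239, 225 and 233 CPM in C57BL/6. Both genes were highest in S11, and neither showed an overlap between the strains. Idi1 differed by 1.23-fold (log2 fold change -0.29, SE 0.05, adjusted p = 0.00104) and Fdps by 1.42-fold (log2 fold change -0.51, SE 0.05, adjusted p = 2.55e-05). Copies with at least 25% of their 31-base words in a member are annotated for Idi1 (Idi1-ps1 and Idi1-ps2), Fdps (Gm3571, Gm5873, Gm7979 and Gm8163), Fdft1 (Gm6781), Ggps1 (Gm5630), Insig1 (Gm37784) and Dhcr7 (Gm61325 and Gm68627). These copies are not among the genes counted here, and any reads from them could not be separated.

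Ggps1, which extends farnesyl diphosphate to the longer lipid anchor that Rab proteins carry, was the 1 member of this branch that was not called. It had 23.5, 21.9 and 20.4 CPM in BALB/c and 23.8, 23.6 and 23.2 CPM in C57BL/6, and the strains overlapped. Its log2 fold change was 0.10 (95% confidence interval -0.05 to 0.24, adjusted p = 0.222), which excludes the size seen for Fdps. A 1568-base transcript held from 3.86% to 5.42% of its reads in BALB/c and from 9.62% to 12.5% in C57BL/6 libraries. When counts were adjusted for this difference in transcript length, the log2 fold change of Ggps1 became 0.34 with an adjusted p of 0.0116 in edgeR and 0.00516 in DESeq2.

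**Figure D2:**
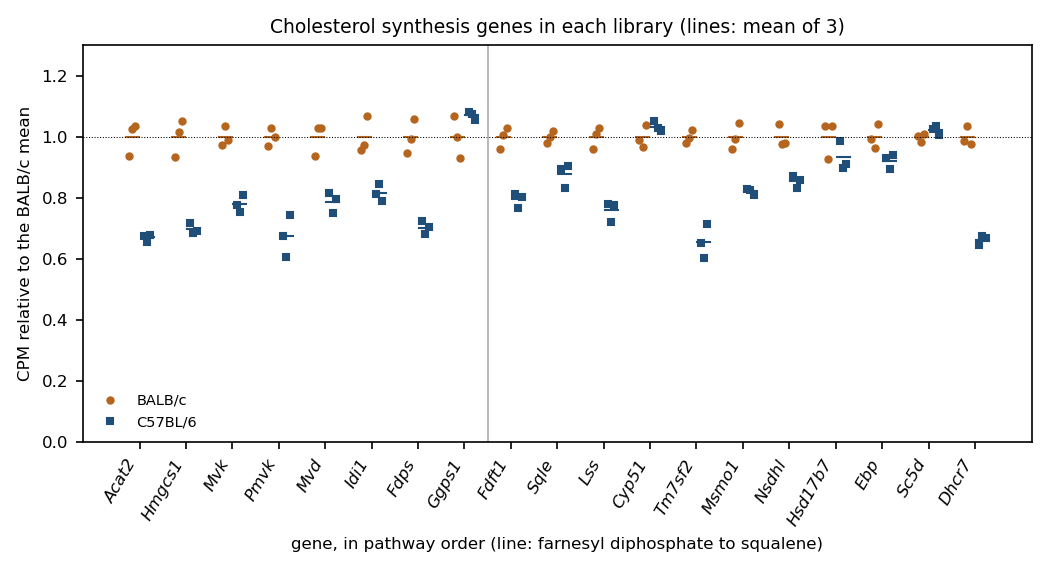
CPM of the 19 synthesis enzymes in each library relative to the mean of the 3 BALB/c libraries (y axis), in pathway order along the x axis. Short lines mark the mean of the 3 libraries of a strain. The C57BL/6 points of Acat2, Pmvk, Dhcr7 and Tm7sf2 lie lowest, and those of Ggps1, Cyp51 and Sc5d lie among or slightly above the BALB/c points.

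Fdft1 commits farnesyl diphosphate to sterols by making squalene, Sqle adds oxygen to it, and Lss closes the ring to lanosterol. Fdft1 was expressed at 111, 117 and 119 CPM in BALB/c BMMCs and at 94.4, 89.0 and 93.3 CPM in C57BL/6 BMMCs. Sqle gave 252, 258 and 262 CPM in BALB/c and 230, 215 and 233 CPM in C57BL/6. Lss was at 268, 282 and 287 CPM in BALB/c and at 218, 201 and 217 CPM in C57BL/6. None of the 3 genes overlapped between strains, and each was lowest in S13. The differences were 1.26-fold for Fdft1 (adjusted p = 0.000173), 1.14-fold for Sqle (adjusted p = 0.00505) and 1.32-fold for Lss (adjusted p = 8.99e-05).

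Tm7sf2, a reductase of the sterol ring, showed the largest fold among the enzymes. It was measured at 29.8, 30.3 and 31.2 CPM in BALB/c and at 19.8, 18.4 and 21.7 CPM in C57BL/6 libraries. The separation was clear in each library, with 1.52-fold higher expression in BALB/c (log2 fold change -0.60, SE 0.07, adjusted p = 7.02e-05). Tm7sf2 shares 9.24% of its words with the overlapping gene Vps51, for which reads can be hard to divide. Dhcr7, which carries out the last reduction to cholesterol, followed with 136, 142 and 135 CPM in BALB/c and 89.1, 93.2 and 92.0 CPM in C57BL/6. Its values were tight within each strain, and the fold was 1.51 (log2 fold change -0.59, SE 0.04, adjusted p = 2.77e-06), the lowest adjusted p among the 19 enzymes.

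Msmo1 and Nsdhl remove the methyl groups of lanosterol, and Ebp shifts a double bond in the ring. Msmo1 was expressed at 190, 197 and 207 CPM in BALB/c and at 165, 164 and 161 CPM in C57BL/6, 1.21-fold apart without overlap (adjusted p = 0.000433). Nsdhl lies on the X chromosome and gave 128, 120 and 121 CPM in BALB/c and 107, 102 and 106 CPM in C57BL/6 (1.17-fold, adjusted p = 0.0016). Without S11, the library that lacked Xist, Nsdhl kept a log2 fold change of -0.24 with an adjusted p of 0.00268. Ebp, also on the X chromosome, gave 86.0, 83.3 and 90.2 CPM in BALB/c and 80.6, 77.4 and 81.5 CPM in C57BL/6. Its groups did not overlap, but the fold was only 1.08 with an adjusted p of 0.0452, and without S11 it was not called (log2 fold change -0.09, adjusted p = 0.129). Ebp also lost its call without S9 (adjusted p = 0.065), without S12 (0.0973), without S13 (0.169) and without S14 (0.0711).

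Cyp51, Hsd17b7 and Sc5d, which act on the same stretch of the pathway, were not called. Cyp51, the demethylase of lanosterol, ranged from 204 to 220 CPM in BALB/c and from 215 to 223 CPM in C57BL/6, with a log2 fold change of 0.05 (95% confidence interval -0.04 to 0.14, adjusted p = 0.339). Hsd17b7, a reductase of the demethylation complex, ranged from 28.5 to 31.8 CPM and from 27.6 to 30.3 CPM, with a log2 fold change of -0.10 (-0.24 to 0.04, adjusted p = 0.213). Sc5d, a desaturase, ranged from 84.5 to 86.7 CPM and from 86.4 to 88.8 CPM, with a log2 fold change of 0.03 (-0.05 to 0.11, adjusted p = 0.462). In each of the 3 genes the strains overlapped, and their intervals exclude differences of the size of those of Dhcr7 or Tm7sf2. The longer transcript of Sc5d, of 4929 bases, held from 15% to 19.9% of its reads in BALB/c and from 9.19% to 11% in C57BL/6, without an overlap of the strains. With counts adjusted for transcript length, edgeR called Sc5d higher in C57BL/6 (log2 fold change 0.098, adjusted p = 0.0469).

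The direction of small differences depended on the scaling of libraries. With plain library size the median of all tested genes moved from -0.01 to -0.15, and 24 members were called higher in BALB/c. Under this scaling Ggps1, Cyp51 and Sc5d changed sign to -0.04, -0.10 and -0.11, and Sc5d (adjusted p = 0.019) was called higher in BALB/c together with Hsd17b7 (adjusted p = 0.00947). The 15 called enzymes kept their direction under all 18 alternatives, and 14 of them also kept their call, Ebp being the exception.

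Of the 5 SREBP control genes, 1 was higher in BALB/c and 4 were not called. Srebf2, which encodes the SREBP that mainly drives cholesterol genes, was expressed at 366, 375 and 342 CPM in BALB/c and at 365, 356 and 369 CPM in C57BL/6. The strains overlapped, and its log2 fold change was 0.01 (95% confidence interval -0.09 to 0.11, adjusted p = 0.857). Srebf1, whose products drive mainly fatty acid genes, ranged from 227 to 239 CPM in BALB/c and from 219 to 227 CPM in C57BL/6, with a log2 fold change of -0.06 (-0.15 to 0.02, adjusted p = 0.186). Scap, the escort of SREBP, ranged from 76.7 to 83.8 CPM in BALB/c and from 78.5 to 83.8 CPM in C57BL/6 (log2 fold change 0.03, -0.07 to 0.14, adjusted p = 0.562). Both Srebf genes were called higher in BALB/c with plain library size, Srebf1 at -0.21 (adjusted p = 0.00169) and Srebf2 at -0.13 (adjusted p = 0.0308), and also in both limma fits of TPM (adjusted p 0.00197 and 0.00216 for Srebf1, 0.0264 and 0.0276 for Srebf2). These are RNA levels, and the processing and nuclear amount of SREBP proteins were not measured here.

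Insig1, which retains SREBP and is itself an SREBP target, was the 1 control gene that was called. It reached 208, 216 and 236 CPM in BALB/c and 189, 189 and 177 CPM in C57BL/6. All BALB/c libraries were above all C57BL/6 libraries, and the fold was 1.19 (log2 fold change -0.25, SE 0.05, adjusted p = 0.00388). Insig2, its relative, was lower in abundance, with 16.3 to 18.3 CPM in BALB/c and 17.5 to 20.3 CPM in C57BL/6, and the strains overlapped (log2 fold change 0.08, 95% confidence interval -0.11 to 0.26, adjusted p = 0.458).

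Soat1 encodes the enzyme of the endoplasmic reticulum that esterifies cholesterol for storage in lipid droplets, and it lies on the minus strand at chr1:156252095-156303864 in GRCm39. It was counted with 5169, 4462 and 5949 reads in S9, S10 and S11 and with 649, 473 and 587 reads in S12, S13 and S14. In CPM these were 162, 150 and 158 for the BALB/c libraries and 20.3, 17.5 and 16.6 for the C57BL/6 libraries. The strains were far apart and the libraries within each close together, and the log2 fold change was -3.11 (SE 0.07, 95% confidence interval -3.28 to -2.95, adjusted p = 3.6e-09). Soat1 was the only member past a 2-fold change, a threshold that 13.3% of all tested genes passed, and it ranked 149 of 12461 genes by log2 fold change toward BALB/c. Leaving out any 1 library or changing the scaling, filter or test left its log2 fold change between -3.27 and -3.05. The same transcript of 4785 bases held at least 93.7% of the Soat1 reads in all 6 libraries. Soat2, the second enzyme of this kind, had between 317 and 451 reads per library and a log2 fold change of -0.25 (adjusted p = 0.0461), in the same direction as Soat1 but far smaller.

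Abcg1, a transporter that moves cholesterol toward high density lipoprotein, was the only member that was higher in C57BL/6 BMMCs. It had 44.2, 44.2 and 42.4 CPM in BALB/c and 90.9, 82.6 and 87.1 CPM in C57BL/6, at chr17:31276649-31336969 on the plus strand of GRCm39. The BALB/c libraries were almost equal and all C57BL/6 libraries lay far above them, with a log2 fold change of 0.996 (SE 0.05, 95% confidence interval 0.89 to 1.10, adjusted p = 2.65e-07), just under 2-fold. A single transcript took all of its reads. Abca1, the other cholesterol exporter on the list, was near the limit of detection with 18, 33 and 26 reads in BALB/c and 13, 15 and 9 reads in C57BL/6. It was lower in each C57BL/6 library than in every BALB/c library, but its log2 fold change of -0.97 had a 95% confidence interval of -1.83 to -0.12 and an adjusted p of 0.0564. Abca1 was called without S9 (adjusted p = 0.0443) and without S13 (adjusted p = 0.0479), and was not called with any other single library left out.

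Macrophages also express Abcg1 and Abca1 strongly, and macrophage genes were therefore read beside them. Their 8 listed genes summed to between 0.705 and 1.63 CPM in BALB/c and between 13.3 and 13.9 CPM in C57BL/6 libraries. This sum came from Adgre1, with at most 16 reads in BALB/c and 268 to 365 in C57BL/6, and from Cd68, with 21 to 36 and 91 to 134 reads. The defining genes Csf1r, C1qa, C1qb and C1qc had 0 reads in all 6 libraries, and Lyz2 and Mrc1 had at most 2 reads. Of 8 genes that mark basophils, 5 were higher in C57BL/6 and 1 was higher in BALB/c, and their sum was between 406 and 418 CPM in BALB/c and between 512 and 523 CPM in C57BL/6 libraries. Those past a 2-fold change were Mcpt8 (2421 to 3316 reads in BALB/c and 4868 to 6453 in C57BL/6), Cebpa (at most 5 and 253 to 334), Ccl9 (at most 13 and 310 to 368) and Prss34 (at most 8 and 192 to 224). Of 10 mast cell genes, 5 were higher in C57BL/6, 2 were higher in BALB/c (Cma1 and Mitf) and 3 were not called. Past 2-fold among them, both higher in C57BL/6, were Tpsb2 (log2 fold change 2.32) and Hdc (1.19). Hdc had 66 to 84 reads in BALB/c and 141 to 202 in C57BL/6. On the erythroid list Hbb-bt was also past 2-fold, with 0 reads in BALB/c and 160 to 214 in C57BL/6. The part of other cells in the Abcg1 difference was not tested.

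Stard4, a carrier that moves sterols between membranes and an SREBP target, was measured at 165, 164 and 173 CPM in BALB/c and at 135, 134 and 133 CPM in C57BL/6. The strains did not overlap, and expression was 1.25-fold higher in BALB/c (log2 fold change -0.32, SE 0.04, adjusted p = 0.000102), a size close to that of Fdft1. Mylip, a ubiquitin ligase that sends lipoprotein receptors to degradation, gave 11.3, 15.1 and 11.9 CPM in BALB/c and 9.11, 10.5 and 13.2 CPM in C57BL/6. Its SE of 0.15 was exceeded only by that of Abca1, the strains overlapped, and its log2 fold change of -0.22 was not called (95% confidence interval -0.57 to 0.12, adjusted p = 0.251).

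Of the liver X receptors, Nr1h2 was present in all libraries and Nr1h3 was barely detected. Nr1h2 ranged from 66.3 to 73.5 CPM in BALB/c and from 68.7 to 72.0 CPM in C57BL/6, with a log2 fold change of 0.02 (95% confidence interval -0.09 to 0.13, adjusted p = 0.743). Nr1h3 had 6, 9 and 7 reads in BALB/c and 3, 7 and 5 reads in C57BL/6, too few for a test. Of known liver X receptor targets, Abcg1 was higher in C57BL/6, while Abca1 (-0.97), Mylip (-0.22) and Srebf1 (-0.06) had negative log2 fold changes that were not called. Outside the 31 genes, the known targets Lpcat3 (-0.29, adjusted p = 0.00114) and Pltp (-0.96, adjusted p = 0.0364, with at most 38 reads in a library) were called higher in BALB/c.

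**Figure D3:**
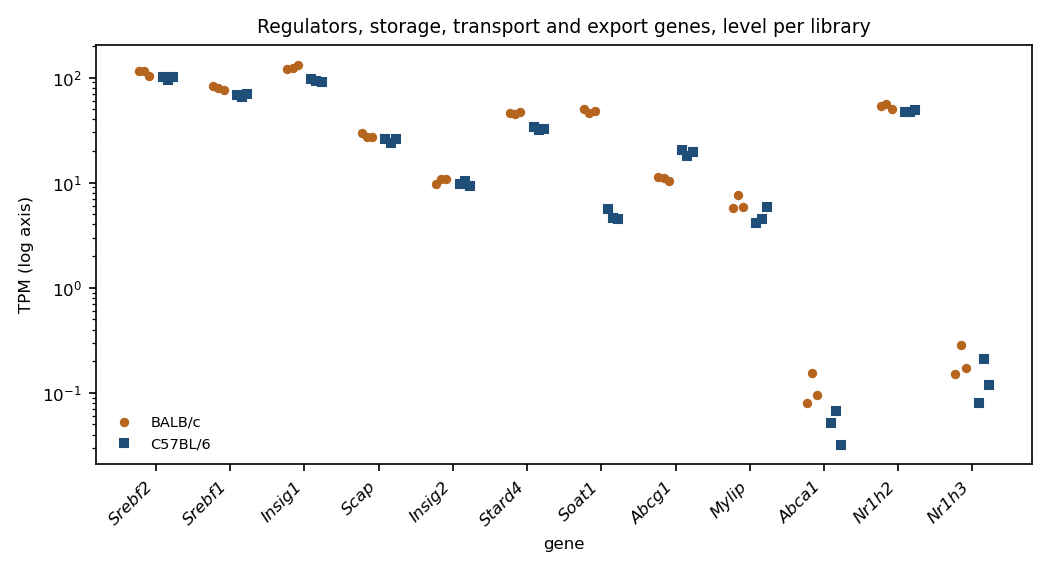
TPM of regulators and of transport, storage and export genes in each library (y axis, logarithmic), 3 points per strain and gene. Soat1 lies at the level of Stard4 in BALB/c and at that of Mylip in C57BL/6, Abcg1 is higher in C57BL/6, and Abca1 and Nr1h3 lie below 1 TPM in all libraries.

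On the TPM scale, which divides by transcript length, Fdps was the most abundant member in both strains with 433 ± 17.6 TPM (SD, n = 3) in BALB/c and 269 ± 13.9 TPM in C57BL/6. It accounted for 18.6% of the summed TPM of the members in BALB/c and for 16.2% in C57BL/6. Msmo1 came next with 168 ± 4.66 and 122 ± 3.19 TPM, followed by Sqle with 141 ± 0.721 and 110 ± 7.17 TPM. In BALB/c, Hmgcs1 (137 ± 6.43 TPM) overlapped with Sqle, and Insig1 (126 ± 6.34 TPM) overlapped with Hmgcs1 and with Idi1 (121 ± 5.36 TPM), so that the order of these genes was not resolved. In C57BL/6, Srebf2 with 99.96 ± 3.94 TPM overlapped with Sqle above it and with Insig1 (93.8 ± 3.77 TPM) below it, and Hmgcs1 had 84.6 ± 4.24 TPM. Soat1 moved from rank 20 with 48.1 ± 2.24 TPM in BALB/c to rank 28 with 4.92 ± 0.614 TPM in C57BL/6. The lowest levels were those of Nr1h3, with 0.203 and 0.136 TPM, and of Abca1, with 0.11 and 0.05 TPM. TPM values carry no TMM correction, and the summed TPM of the members was 2305 to 2354 in BALB/c and 1593 to 1717 in C57BL/6.

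Deviations of the enzymes from their strain mean are given as a description. In S11, 15 of 19 enzymes were above their BALB/c mean, with a median deviation of 0.04 on the log2 scale, in S10 10 were above it, with a median of 0.00, and in S9 4 were above it, with a median of -0.04. In C57BL/6, 5 of 19 enzymes were above the strain mean in S13, with a median of -0.04, against 15 in S12 and 12 in S14. Over all tested genes the median was 0.00 in each library, and in S11 6293 of 12461 genes were above their mean. These shifts were small beside the median strain difference of -0.33.

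Other sterol genes, outside the 31, did not share the direction of the synthesis enzymes. Of 29 further sterol handling genes 25 were tested, of which 9 were higher in C57BL/6, 7 were higher in BALB/c and 9 were not called, with a median log2 fold change of -0.04. Stard5, a sterol-binding protein, was higher in C57BL/6 with 73 to 76 reads in BALB/c and 333 to 462 reads in C57BL/6 (log2 fold change 2.48). Vldlr, a lipoprotein receptor, was higher in BALB/c with a log2 fold change of -1.29 (adjusted p = 0.0234), although its reads were few, at 122, 85 and 47 for S9 to S11 and 29, 22 and 51 for S12 to S14, and the strains overlapped. Of 13 genes that use isoprenoid products outside sterol synthesis, 10 were not called, 2 were higher in C57BL/6 and 1 was higher in BALB/c. That 1 gene was Dhdds, a subunit of the enzyme that makes the dolichol chain (log2 fold change -0.39).

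Fatty acid synthesis, which SREBP also controls, was higher in BALB/c for 10 of 16 genes, higher in C57BL/6 for 3 and not called for 3, with a median of -0.21. The genes past a 2-fold change went in opposite directions. Acacb, the acetyl-CoA carboxylase at mitochondria, had 122, 95 and 156 reads in BALB/c and 4, 11 and 13 reads in C57BL/6 (log2 fold change -3.63). Acss2, which makes acetyl-CoA from acetate, had a log2 fold change of 1.16 with 909 to 1054 reads in BALB/c and 1730 to 2449 in C57BL/6.

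Genes of proliferation moved in the same direction as the synthesis enzymes. All 12 listed genes had BALB/c libraries above C57BL/6 libraries, 11 of them were called higher in BALB/c and Pcna was not, with a median log2 fold change of -0.56. Their summed expression was between 2329 and 2527 CPM in BALB/c and between 1717 and 1799 CPM in C57BL/6. The part of proliferation in the difference of the synthesis enzymes was not tested.

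**Figure D4:**
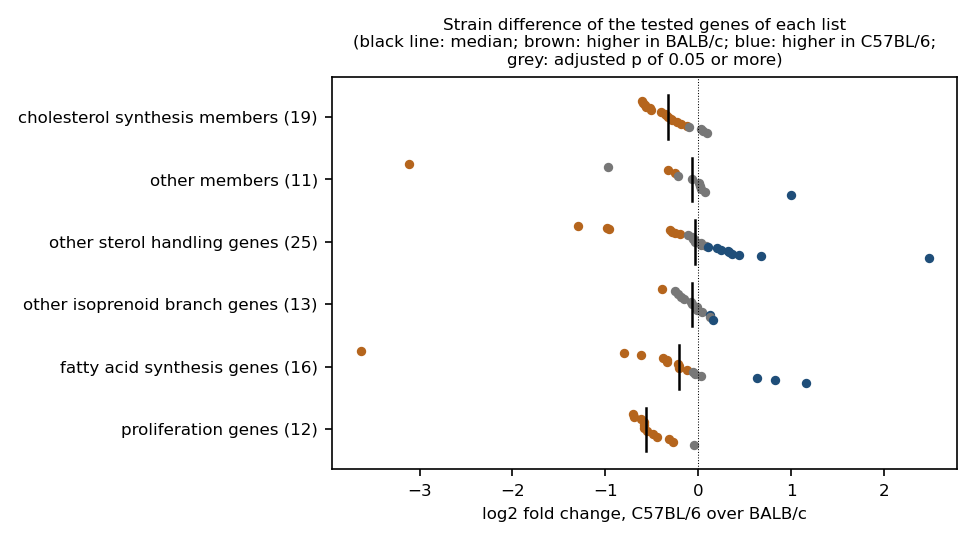
Log2 fold change (C57BL/6 over BALB/c, x axis) of every tested gene of 6 lists, 1 point per gene, with a vertical line at the median. The synthesis enzymes (median -0.33), fatty acid genes (-0.21) and proliferation genes (-0.56) lie mostly left of 0, and the other sterol handling genes (-0.04) lie on both sides.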

How the data were processed

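Processed tables of 6 libraries, 3 BALB/c and 3 C57BL/6, were analysed. The authors prepared stranded mRNA libraries, ran FastQC 0.11.5 and quantified transcripts with Salmon 0.8.2. The estimated count of each transcript, as deposited, can be fractional. The deposited TPM divides it by effective length and by the library total. The methods name Ensembl GRCm39, but the tables list RefSeq transcripts. RefSeq derives from C57BL/6J, and an effect of strain sequence on read assignment was not tested.

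Transcripts were matched to symbols, without version, through a RefSeq gene table: 106440 of 129698 (82.1%) matched, and 2.69% to 3.12% of reads stayed unmatched. Gene coordinates are GRCm39 (GENCODE). Counts were summed per gene, rounded and tested with edgeR 4.0.16 (R 4.3.3; quasi-likelihood, TMM factors 0.940 to 1.05, minimum count 10, Benjamini-Hochberg). With a biological coefficient of variation of 0.0665, the number of cultures limits the precision, except for genes with few reads. SE was derived from the fold change and F. On simulated counts of 12461 genes, edgeR recovered 200 of 200 genes changed 4-fold with 0 false calls. This count required an adjusted p under 0.05 and a fold above 2. Smaller changes, such as those of the synthesis enzymes, and calls without a fold limit were not checked in this way. Alternatives were DESeq2 1.42.0, limma 3.58.1 on log2 TPM with a pseudocount of 1 or 0.1, other scalings, filters and length offsets, summed copies, unmatched transcripts and leaving out each library.

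Members and lists were chosen with earlier results of these data known. Every member is named, as are genes of other lists called above 2-fold (at most 5 per list) and genes that share at least 25% of their 31-base words with a member. Soat2, Dhdds and other single genes were named after their values were seen. Lung samples and protein assays were not analysed here, and some genes are not reported here.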

Additional observations from a re-analysis of the deposited data

How the results depend on the processing

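Of 19 called members, 18 kept their direction and call under all 18 alternatives, and Ebp did not (adjusted p 0.000785 to 0.169). The number of members higher in BALB/c was 18 and ranged from 17 to 24. The number higher in C57BL/6 was 1, and became 2 with DESeq2 and a length offset (Ggps1 added) and 3 with edgeR and that offset (Ggps1 and Sc5d added). The number past 2-fold was 1, and became 2 with DESeq2 size factors (Abcg1 added), 2 with plain library size (Abca1 added) and 1 to 3 with 1 library left out. It was 3 without S9 and without S13 and 2 without S10, where Abcg1, alone or with Abca1, passed 2-fold. With 1 library left out, 17 to 18 members were higher in BALB/c and 1 was higher in C57BL/6.

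Of 539 single values, 492 kept direction and side of the threshold, 11 lost the call, 12 gained it in the same direction and 24 reversed, in 7 members that were not called in the main test. Of the 24 reversed values, 9 were also called, now higher in BALB/c: Sc5d, Srebf2 and Nr1h2 with plain library size, and Cyp51, Srebf2 and Nr1h2 in both limma fits. Log2 fold changes after reversal were -0.011 for Srebf2 and -0.0011 for Nr1h2 with upper-quartile factors. With plain library size they were -0.045 for Ggps1, -0.096 for Cyp51, -0.11 for Sc5d, -0.13 for Srebf2, -0.11 for Scap, -0.070 for Insig2 and -0.12 for Nr1h2. With limma on log2(TPM + 1) they were -0.13 for Cyp51, -0.078 for Sc5d, -0.16 for Srebf2, -0.14 for Scap, -0.089 for Insig2 and -0.15 for Nr1h2, and on log2(TPM + 0.1) -0.13, -0.079, -0.16, -0.14, -0.097 and -0.16. With 1 library left out, Srebf2 ranged from -0.029 (without S11) to 0.036, with -0.0015 without S14, and Nr1h2 from -0.017 (without S11) to 0.057. Plain library size and TPM carry no composition correction, and for the other reversals the cause was not tested.

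Abca1, with at most 33 reads per library, had no value under a filter of 10 counts in every library, and Nr1h3 could not be tested. No paired analysis was done, because the labels give only library numbers and name no pairing or batch of the cultures.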

Other observations

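Of the genes within 300 kb of Soat1 on chromosome 1, Tdrd5 (log2 fold change 1.27), Fam20b (0.71), Tor3a (0.40) and Abl2 (0.15, adjusted p = 0.0427 in edgeR's quasi-likelihood test) were higher in C57BL/6, opposite in direction to Soat1. Not all tested neighbours are given here. Beside Abcg1 on chromosome 17, most genes within 300 kb had few or no reads, and of the tested neighbours Ubash3a was higher in BALB/c (log2 fold change -2.09, 76 to 435 reads) while Dnah8 was not called (0.08, adjusted p = 0.587).

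Nceh1 and Lipa, which hydrolyse cholesterol esters, were higher in C57BL/6 with log2 fold changes of 0.44 and 0.32, opposite to the ester-forming Soat1. Among the fatty acid genes, the desaturases Scd2 (-0.80), Scd1 (-0.61), Fads1 (-0.38) and Fads2 (-0.34) were all higher in BALB/c, while Lpin1 (0.82) and Me1 (0.63) were higher in C57BL/6.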
